A study of Mus musculus with 18 samples.

Results

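The MYC network is described here through 8 genes, Myc, Mycn, Max, Mxd1, Mxd3, Mxd4, Mxi1 and Mnt, which were chosen as named genes of this protein family. All 8 were found among 20066 genes of the table of blood differentiation stages and among 20495 genes of the table of mouse embryonic fibroblasts (MEFs). The stages were embryonic stem cells (ESC), mesoderm (MES, Bry.GFP+, FLK1-), hemangioblasts (HB, Bry.GFP+, FLK1+), hematopoietic progenitors (HP, CD41+) and macrophages (MAC, CD11b+). All came from an ES cell line of strain 129 that carries a GFP reporter in the brachyury gene, with 2 libraries per stage. This is a single line, its undifferentiated cells were grown on MEFs, and sorting of mesoderm and hemangioblasts relied on the reporter.

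The MEFs were prepared at embryonic day 14.5, strain 129, and were left untreated (uFIB) or given Scl and Lmo2 (SL), Scl, Fli1, Gata2 and Lmo2 (SFGL), or Fli1, Gata2 and Lmo2 (FGL), with 1 library for each at day 12 and at day 21. Scl is another name for Tal1, a transcription factor of early blood cells. Wild-type MEFs and MEFs of iTal1-2A-GFP mice, in which rtTA and doxycycline switch on a TRE-TAL1 cassette, were both used for reprogramming, and the labels do not say which of these each library came from.

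MYC and MYCN are transcription factors that bind DNA only as a pair with MAX. The MYC-MAX pair binds the E-box CACGTG and is known to raise genes of ribosome making, metabolism and cell division. The MXD proteins (Mxd1, Mxd3, Mxd4 and Mxi1, which is also called Mxd2) and MNT compete for MAX and for the same E-boxes, and recruit SIN3 and histone deacetylases, which lower transcription. In many lineages MYC genes are known to be high in dividing cells and MXD genes to rise as cells mature.

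Values are FPKM, that is fragments scaled to transcript length and to library size, so levels of different genes could be set side by side within a table. The table of stages combines the replicates into 1 value per stage, so its values have no replicate error and were not tested. Each MEF condition has 1 library per day, and a test over both days is given after the values of the MEFs. A member was called risen or fallen where it differed by 2-fold or more and either sample reached 1 FPKM. For this, 0.001 FPKM was added to each value. The counts stand beside the share of all genes that passed the same limits. In these comparisons, shares and medians of all genes are taken over the genes with at least 1 FPKM in either sample. Libraries of the same MEF condition at day 21 and day 12 give a view of the spread between libraries, although they also differ by day. Between the untreated libraries the 7 members above 1 FPKM differed by -0.47 (Mnt) to 0.47 (Mxd4) on the log2 scale, none passed 2-fold, and 3.50% of all genes rose and 2.73% fell. The day difference ran from -0.85 (Mxd3) to 0.28 (Mycn) in SL, from -0.66 (Mnt) to 0.09 (Mycn) in SFGL and from -1.34 (Mxd1) to 0.47 (Mxd4) in the libraries labelled FGL, where Mycn was below 1 FPKM.

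Most of the defining markers were highest in their own stage. Pou5f1 was at 383 FPKM in ESC, T at 142 in MES, Kdr at 77.6 in HB, Itga2b, which encodes CD41, at 62.5 in HP and Csf1r at 234 in MAC. The other mesoderm marker, Mixl1, was at 46.9 in MES and higher, at 80.4, in HB. Of the MEF libraries, those labelled FGL matched their label in part. Lmo2 was at 36.2 and 66.5 FPKM at days 12 and 21 against 0.499 and 2.28 in uFIB, and Gata2 at 21.9 and 35.1 against 1.80 and 2.13. Tal1, which FGL lacks, was at 7.04 FPKM in FGL at day 12 against 0.0414 in uFIB, and at 0.0705 in FGL at day 21 against 0.415 in uFIB. Fli1, which FGL holds, was at 8.29 FPKM at day 12 against 3.43, and at 3.35 at day 21 against 3.02. The library at day 12 thus held Tal1 transcript, which its label does not list as given, and that at day 21 showed little difference in Fli1. FPKM does not separate a given factor from the cells' own gene. In SL at day 12, which was given neither, Gata2 was at 68.8 FPKM and Fli1 at 46.7, against 1.80 and 3.43 in uFIB. The source of the Tal1 transcript was not tested. They are given throughout as the libraries labelled FGL.

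All of the genes lie on mm10 (GRCm38). Myc spans chr15:61985341-61990361, Mycn chr12:12936093-12941836, Max chr12:76937269-76962248 and Mnt chr11:74830924-74845725. Mxd1 lies at chr6:86647045-86669159, Mxd4 at chr5:34176580-34187710 and Mxi1 at chr19:53310506-53375810. The locus given for Mxd3, chr13:55322055-55329730, also takes in the neighbouring gene Prelid1, and RefSeq has the 2 genes share 103 bases at chr13:55325170-55325272. Annotated noncoding genes overlap Mxd1 (Gm38850) and Mxi1 (Gm30541), and whether strand was used in counting is not given in the sources used here, so the values of these 3 members are less certain.

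RefSeq promoter windows of 300 bases on GRCm38.p6, 250 before and 50 after the start, were present for 7 of the 8 members, with 9 windows in all because Mxi1 has 3. They were searched for the E-box CACGTG, which reads the same on both strands. It was found in the single window of Max, Mnt and Mxd4, and 7.15% of all 32851 windows hold it. The stretches are shown because the E-box is the word that the proteins of this family bind, and the capitals mark it.

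Max, chr12:76962222-76962311, minus strand, E-box 3 bases before the start: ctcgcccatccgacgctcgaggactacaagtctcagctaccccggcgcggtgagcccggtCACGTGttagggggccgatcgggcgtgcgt
Mnt, chr11:74830741-74830830, plus strand, E-box 123 bases before the start: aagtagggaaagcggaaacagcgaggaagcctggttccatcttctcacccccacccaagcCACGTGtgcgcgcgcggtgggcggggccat
Mxd4, chr5:34187900-34187960, minus strand, E-box 219 bases before the start: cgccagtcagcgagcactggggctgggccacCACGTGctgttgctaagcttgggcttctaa

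The windows of Mycn, Mxd1, Mxd3 and Mxi1 did not hold these letters, which says only that they are not in these windows. The window of Mycn held 2 copies of TTTGGCGC, letters of the kind known to bind E2F, the factors of entry into S phase. This motif was searched on both strands after the sequence had been seen, 0.514% of all windows hold it, and among the 9 member windows only that of Mycn did. It is shown because Mycn differed most between stages, with the motif in capitals.

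Mycn, chr12:12941973-12942079, minus strand, first copy 183 bases before the start: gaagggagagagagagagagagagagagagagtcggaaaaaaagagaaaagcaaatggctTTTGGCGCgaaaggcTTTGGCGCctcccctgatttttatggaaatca

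Mycn was the most abundant member in ESC and nearly absent in MAC. From ESC through MES, HB and HP to MAC its levels were 88.7, 25.2, 31.8, 17.95 and 0.198 FPKM. The fall came in 2 steps, with 3.52-fold from ESC to MES and a log2 difference of -6.50 from HP to MAC. HP differed from HB by -0.83 on the log2 scale, short of the 2-fold limit.

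Myc, the founding member of the family, stayed within a far narrower band. In the same order its levels were 17.03, 6.77, 17.7, 16.0 and 7.67 FPKM. MES and MAC were thus the low stages, and the highest value was 2.62 times the lowest. Myc fell 2.51-fold from ESC to MES, rose 2.62-fold from MES to HB and fell 2.09-fold from HP to MAC. The last of these did not pass with a pseudocount of 1.

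Mycn accounted for 83.9% of the summed Myc and Mycn FPKM in ESC, for 78.8% and 64.2% in the mesodermal stages MES and HB, for 52.9% in HP and for 2.51% in MAC. Between Myc and Mycn, Myc was thus the larger source of transcript only in MAC, where its own level was among its lowest.

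Max, the shared partner, was high at both ends of the series, at 16.97 FPKM in ESC and 18.3 in MAC, with 8.05, 10.2 and 8.51 FPKM in the stages between. It fell 2.11-fold from ESC to MES and rose 2.15-fold from HP to MAC. The latter difference shrank from 1.10 to 0.37 on the log2 scale when MAC and HP were brought to the same upper quartile, so the rise of Max passed the limit only without scaling. Its fall from ESC to MES did not pass with a pseudocount of 1.

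**Figure D1:**
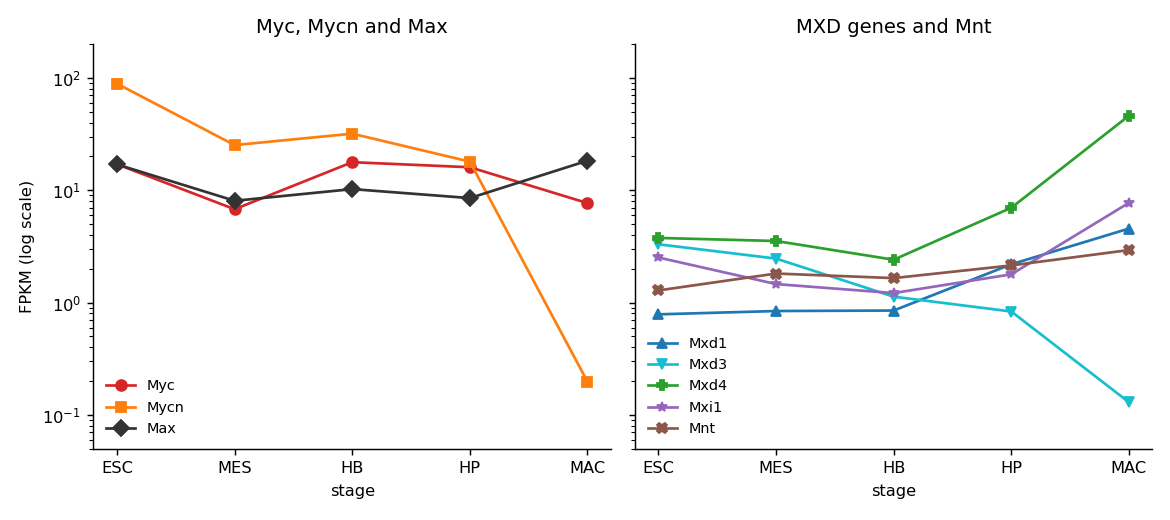
FPKM (log scale) of the 8 members in each stage, with 1 point per stage that combines the replicates; lines join the stages and carry no error. Mycn drops from 88.7 FPKM in ESC to 0.198 in MAC while Mxd4 reaches 46.0 in MAC.

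Among the repressors, Mxd4 showed the reverse course to Mycn at the end of the series. Its levels from ESC to MAC were 3.76, 3.53, 2.41, 6.98 and 46.0 FPKM. It rose 2.90-fold from HB to HP and 6.59-fold from HP to MAC, and made up 33.2% of the summed MXD and MNT FPKM in HB, 50.1% in HP and 75.0% in MAC.

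Mxd1, known from maturing myeloid cells, was below 1 FPKM in ESC (0.786), MES (0.841) and HB (0.850), then reached 2.19 FPKM in HP and 4.55 in MAC. It rose 2.58-fold from HB to HP and 2.08-fold from HP to MAC. The second rise was 0.32 on the log2 scale once MAC and HP had an equal upper quartile, below the limit. Both rises rest on low levels, and neither passed with a pseudocount of 1 or a minimum of 5 FPKM.

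Mxi1 was lowest in the middle of the series, with levels of 2.52, 1.46, 1.21, 1.78 and 7.72 FPKM from ESC to MAC. Only its rise of 4.32-fold from HP to MAC passed the limit. The table splits Mxi1 over 3 start sites, without giving their positions. Site TSS9805 held 91.0% of Mxi1 in ESC and 82.0% in HP, but 53.9% in MES, 34.0% in HB and 36.3% in MAC. Site TSS9804 held 47.0% in MAC, at 3.62 FPKM against 0.321 in HP. Site TSS9806 was at 0.702 FPKM in HB and 1.30 in MAC, and near 0 in ESC and HP. Reads shared by the transcripts of these sites were divided by the software, so the split is less certain than the sum.

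Mxd3, a member known from S phase of dividing cells, ran against the other MXD genes. It was lower at each stage than at the one before, with 3.30, 2.46, 1.13, 0.833 and 0.130 FPKM. It fell 2.18-fold from MES to HB, which did not pass with a pseudocount of 1, and from HP to MAC both levels were below 1 FPKM. Mnt, expressed in most cell types, varied little, with 1.28, 1.81, 1.65, 2.14 and 2.93 FPKM from ESC to MAC, and no step passed 2-fold.

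From ESC to MES, 0 of 7 members with at least 1 FPKM rose and 3 fell (Myc, Mycn and Max), where 11.3% of all genes rose and 12.0% fell. From MES to HB, 1 of 7 rose (Myc) and 1 fell (Mxd3), against 4.05% and 6.30% of all genes. From HB to HP, 2 of 8 rose (Mxd1 and Mxd4) and 0 fell, against 12.3% and 12.8% of all genes. This step passes over hemogenic endothelium, which was not analysed here.

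From HP to MAC, 4 of 7 members rose (Max, Mxd1, Mxd4 and Mxi1) and 2 fell (Myc and Mycn), where 38.0% of all genes rose and 16.9% fell. The median of all genes was 0.53 higher in MAC on the log2 scale, while it moved by 0.15 from MES to HB and by -0.15 from HB to HP. Relative to the median of all genes, Mycn differed by -7.02, Myc by -1.59, Mxd4 by 2.19 and Mxi1 by 1.59, and Max and Mxd1 by 0.58 and 0.53. Mnt was 0.45 higher before and 0.07 lower after this correction. With HP and MAC scaled to an equal upper quartile, 22.4% of all genes rose and 30.1% fell, and 42.7% of the genes called had risen, against 69.3% without scaling. Mxd4 and Mxi1 still rose and Myc and Mycn still fell.

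**Figure D2:**
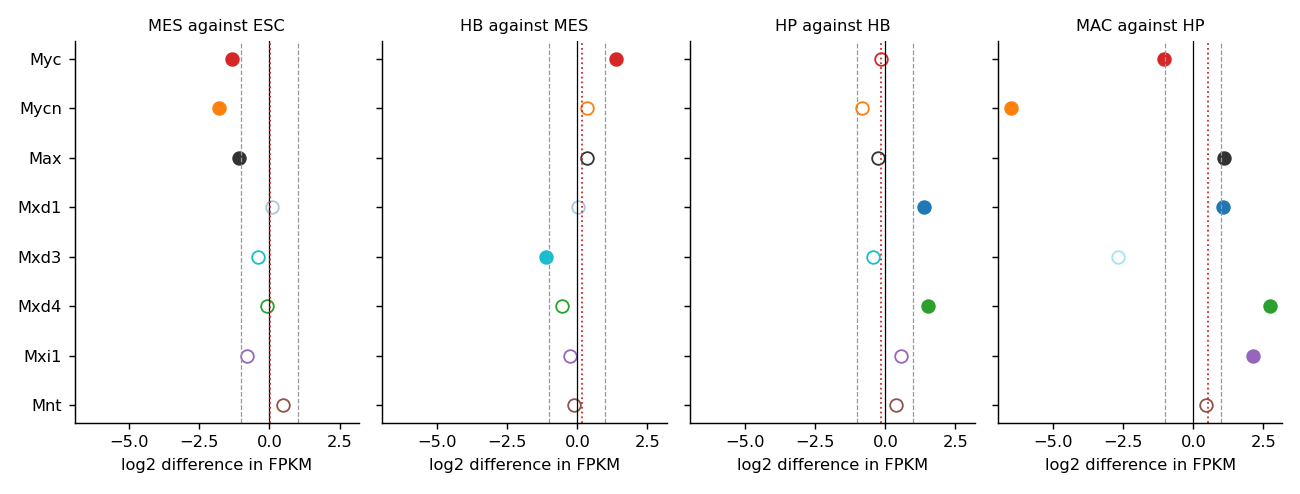
Log2 difference in FPKM of each member over the 4 stage steps; filled points passed the 2-fold limit (dashed lines), pale points had less than 1 FPKM in both stages, and the red dotted line is the median of all genes. In the last step Mycn lies at -6.50 and Mxd4 at 2.72, while the median of all genes is at 0.53.

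The summed FPKM of Myc and Mycn was 9.08 times that of the 5 MXD and MNT genes in ESC, then 3.16, 6.84 and 2.44 times in the next 3 stages. In MAC this ratio was 0.128, so that repressor transcript exceeded that of Myc and Mycn. Summed Myc and Mycn transcript went from 34.0 FPKM in HP to 7.87 in MAC, and summed MXD and MNT transcript from 13.9 to 61.3. Mycl, the third MYC gene, is left out of the ratio. It was at 23.9 FPKM in MES, beside 25.2 for Mycn and 6.77 for Myc, so the value in MES depends on this choice. The ratio is a measure within one sample and does not depend on how the samples were scaled. The sum of these partners was 6.92 times Max in ESC, between 5.23 and 5.63 times in MES, HB and HP, and 3.78 times in MAC.

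In the 8 MEF libraries the ratio was below 1 in each. At day 12 it was 0.329 in uFIB and 0.342 in the library labelled FGL, beside 0.448 with SL and 0.752 with SFGL. At day 21 the same pairs were 0.215 and 0.205, and 0.582 and 0.778. SL and SFGL lay above uFIB on both days, with SFGL the higher of these. On the log2 scale the ratio was -1.61 and -2.22 in uFIB at days 12 and 21. It was -1.16 and -0.78 in SL, and -0.41 and -0.36 in SFGL. SL at day 12 was thus nearer to its uFIB than the untreated libraries were to each other. The same held for SFGL beside SL at day 21, so these differences lie within that spread.

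**Figure D3:**
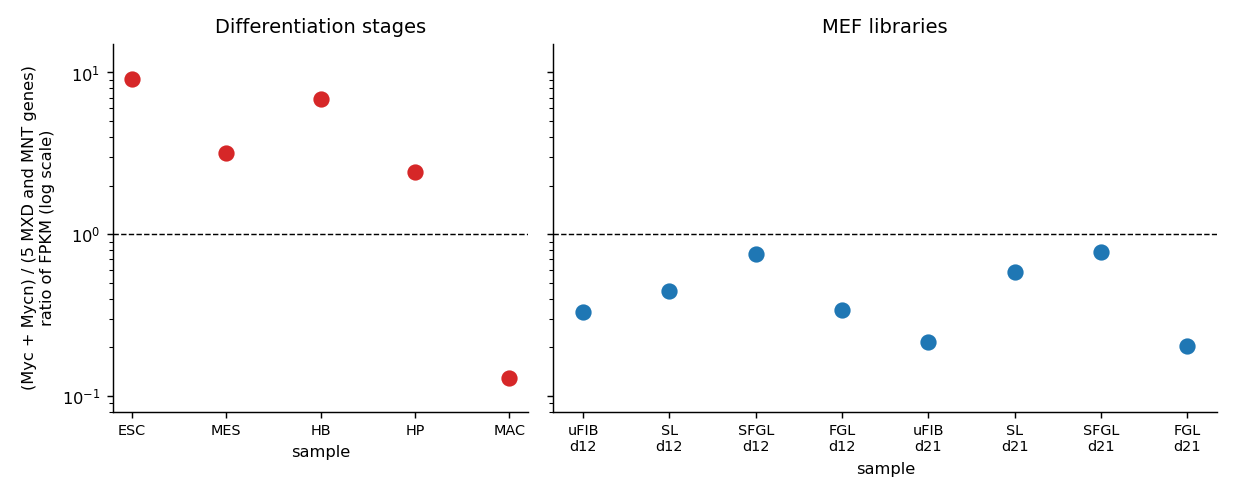
Ratio of the summed FPKM of Myc and Mycn to that of the 5 MXD and MNT genes (log scale) in each stage and in each MEF library, with 1 value per point and a dashed line at 1. Stages from ESC (9.08) to HP (2.44) lie above the line, and MAC (0.128) and all 8 MEF libraries (0.205 to 0.778) below it.

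Other genes of the extended network were followed from a fixed list, of which 4 were in the table of stages. Mycl, the third MYC gene, listed there under its older symbol Mycl1, had 4.86, 23.9, 7.14, 0.294 and 0.136 FPKM from ESC to MAC. It rose from ESC to MES by 2.30 on the log2 scale, the step at which Myc and Mycn fell, and fell at each of the next steps to HP. Mlx, a MAX-like partner, had its high values in ESC (21.2 FPKM) and MAC (29.0), with 11.5, 13.2 and 11.5 between them. The MLX partners of glucose sensing, Mlxip and Mlxipl, did not pass the limit at any step, and Mlxipl was at or below 0.383 FPKM throughout. Mga, a large MAX-binding repressor, was not analysed here in the stages.

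Genes that MYC is known to induce were described from a list of 35. Here and in the MEFs, genes higher or lower by any amount were counted in this list only. The share of all genes that were so was not counted, and the median of all genes is given instead. From MES to HB, where Myc rose, 34 of the 35 were higher and 1 lower, although only 2 rose 2-fold (Ccnd2 and Shmt2) and 0 fell, where 4.05% and 6.30% of all genes did so. After upper-quartile scaling 1 rose and 1 fell. Their median log2 difference was 0.47 beside 0.15 over all genes. From ESC to MES, where Myc and Mycn fell, 23 were lower and 12 higher, with a median of -0.22 beside 0.00 over all genes, and 3 rose and 3 fell, where 11.3% and 12.0% of all genes did so. Ddx18, an RNA helicase, went from 22.3 to 6.52 FPKM and Pa2g4, a regulator of growth, from 169 to 51.2, while Ncl, a nucleolar protein, went from 18.6 to 69.6. From HB to HP, Myc differed by -0.15 and Mycn by -0.83 on the log2 scale, and neither passed the limit. At this step 33 of the 35 were lower, with a median of -0.63 beside -0.15 over all genes. Of the 35, 4 fell where 12.8% of all genes fell, or 2 after upper-quartile scaling. Odc1, the first enzyme of polyamine synthesis, went from 81.7 to 31.8 FPKM.

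From HP to MAC, 23 of the 34 induced genes with at least 1 FPKM fell and 1 rose, where 16.9% of all genes fell and 38.0% rose, with a median of -1.12 where all genes had 0.53. Cad, the enzyme that starts pyrimidine synthesis, fell from 44.9 to 3.93 FPKM. Dkc1, which modifies ribosomal RNA, fell from 40.1 to 6.51, and Nop58, of the particles that methylate ribosomal RNA, from 71.8 to 15.1. Ccnd2, a D-type cyclin, rose from 13.6 to 30.9, and it did not pass the limit after scaling, where 27 fell and 0 rose. Proliferation genes fell at the same step, 5 of 6 of them where 16.9% of all genes fell, with a median of -4.35. Top2a went from 104 to 3.37 FPKM and Mki67 from 51.3 to 2.46, whereas Pcna was at 65.1 and 87.5. The part of cell division in the values of the MYC-induced genes was not tested.

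Of 7 genes that MYC is known to repress, 4 rose and 2 fell from HP to MAC, where 38.0% of all genes rose and 16.9% fell. Cdkn1a, the cell cycle inhibitor p21, rose from 23.3 to 99.5 FPKM, and Cdkn2b, another such inhibitor, from 1.94 to 5.84. Gadd45a, a stress gene, rose from 9.30 to 25.2 and Ndrg1 from 1.40 to 5.64. Gas1, a surface protein of resting fibroblasts, fell from 2.14 to 0.250 and Ndrg2 from 1.22 to 0.249. Cdkn1b, the inhibitor p27, was at 12.1 and 8.25. After upper-quartile scaling 2 of the 7 rose (Cdkn1a and Ndrg1) and 3 fell, Cdkn1b among them, where 22.4% and 30.1% of all genes did so. A list of 19 cofactors mixes genes that act with MYC, such as Ruvbl2, and with MXD proteins, such as Sin3b. Counts over it therefore describe no single side of the network. Of the 19, 6 fell and 2 rose at this step, against 16.9% and 38.0% of all genes. With scaling 12 fell and 0 rose, against 30.1% and 22.4%. Aurka, a mitotic kinase that stabilizes MYCN, fell from 35.1 to 1.96 FPKM, and Sin3b, the scaffold that MXD proteins recruit, went from 85.6 to 231, a difference that passed the limit only without scaling.

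Patterns over the 5 stages were compared by Pearson's r on log2(FPKM + 1) between each of Myc and Mycn and 5478 other genes with at least 10 FPKM in any stage and a range of at least 1. These are descriptions over 5 points that share libraries. Phlda1 was most like Myc (r = 0.972), followed by Glipr2 (0.911), Pgp (0.869), Col4a2 (0.858) and Mcm3ap (0.839), and 1 gene reached 0.95. The levels of Phlda1 from ESC to MAC were 10.1, 1.71, 7.35, 9.68 and 1.64 FPKM. For Mycn 357 genes reached 0.95, led by Nop10, Sirt1, Ska1, Suz12 and Ruvbl2, all with r above 0.99 by this measure. For Mxd4 1096 genes did so, and for Max 40. Fewer genes thus reached this limit with Myc than with Mycn, Mxd4 or Max. Pearson's r compares shape and not size, and the levels of Mycn and Mxd4 in MAC stood far from their other levels. Suz12, with 32.4 FPKM in ESC and 12.8 in MAC, had r = 0.999 with Mycn. These counts are therefore no measure of how particular the course of Myc is.

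In the MEFs, Myc was higher with SL and SFGL on both days. At day 12 uFIB held 23.8 FPKM of Myc and the library labelled FGL 26.9, while SL held 66.0 and SFGL 93.0. At day 21 uFIB and the library labelled FGL held 18.6 and 17.3, and SL and SFGL 53.8 and 75.2. Myc rose 2.78-fold in SL and 3.91-fold in SFGL at day 12, and 2.90-fold and 4.05-fold at day 21. SFGL exceeded SL by 0.49 on the log2 scale at day 12 and by 0.48 at day 21, close to the widest difference between the untreated libraries.

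Mycn stayed low throughout. At day 12 it was at 0.160 FPKM in uFIB and 0.204 in the library labelled FGL, against 2.35 with SL and 2.77 with SFGL. At day 21 these values were 0.0638 and 0.0778, and 2.86 and 2.94. SL and SFGL were the only libraries above 1 FPKM, with log2 differences of 3.87 and 4.11 at day 12 and 5.46 and 5.51 at day 21. The folds rest on levels in uFIB that are close to 0, and Mycn made up at most 5.04% of the summed Myc and Mycn FPKM.

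Max was more evenly expressed. In the order uFIB, SL, SFGL and the library labelled FGL it was at 35.8, 43.8, 44.3 and 38.8 FPKM at day 12, and at 30.3, 36.6, 45.9 and 43.8 at day 21. No difference from uFIB passed 2-fold, the widest being 0.60 on the log2 scale in SFGL at day 21.

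Mxd1 had the widest differences among the members that reached 1 FPKM in uFIB. At day 12 uFIB held 3.79 FPKM and the library labelled FGL 10.02, against 68.0 with SL and 59.2 with SFGL. At day 21 uFIB and the library labelled FGL held 4.17 and 3.96 FPKM of Mxd1, and SL and SFGL 38.3 and 47.5. It rose 17.9-fold and 15.6-fold in SL and SFGL at day 12 and 9.19-fold and 11.4-fold at day 21. Its share of summed MXD and MNT transcript was 5.21% in uFIB and 44.5% in SL at day 12, so that it took the place of Mxd4 as the most abundant repressor gene in SL and SFGL.

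Mxi1 rose beside Mxd1. In the order uFIB, SL, SFGL and the library labelled FGL its levels were 5.52, 26.0, 21.9 and 8.32 FPKM at day 12, and 4.49, 15.9, 16.4 and 5.31 at day 21. The rises in SL and SFGL were 4.72-fold and 3.97-fold at day 12 and 3.54-fold and 3.66-fold at day 21.

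Mxd4 went the other way. At day 12 the levels were 47.7 FPKM in uFIB and 46.3 in the library labelled FGL, beside 39.9 with SL and 30.2 with SFGL. At day 21 they were 66.3 and 63.9, beside 30.9 and 25.7. It fell 2.15-fold in SL and 2.58-fold in SFGL at day 21, while the day 12 differences of -0.26 and -0.66 on the log2 scale did not pass the limit. Set against the mean of the untreated libraries, the fall in SL at day 21 was -0.88 and no longer passed.

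Mxd3 ranged from 2.91 to 7.42 FPKM over the 8 libraries and Mnt from 7.11 to 11.7, and neither passed 2-fold against the uFIB of its day. The highest Mxd3 value was that of SL at day 12, 0.86 above uFIB on the log2 scale, or 1.03 above the mean of the untreated libraries, which passed the limit.

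**Figure D4:**
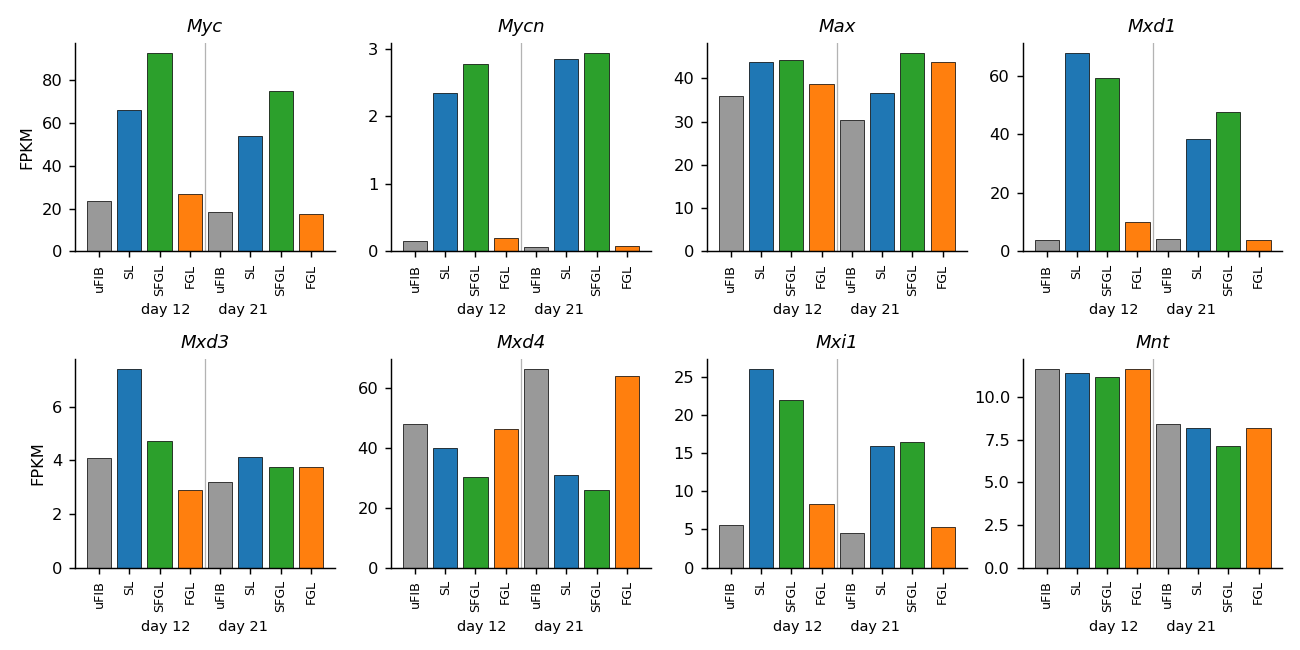
FPKM of each member in the 8 MEF libraries, with 1 bar per library and a separate linear axis from 0 for each gene. Mxd1, Mxi1, Myc and Mycn stand higher in SL and SFGL on both days, Mxd4 stands lower, and Max and Mnt differ little.

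At day 12, 4 of 8 members rose in SL and 0 fell, against 16.3% and 18.2% of all genes, and 4 of 8 rose in SFGL and 0 fell, against 16.9% and 21.5%. At day 21, 4 of 8 rose and 1 fell in SL, against 14.6% and 15.7% of all genes, and likewise in SFGL, against 16.5% and 20.2%. The genes that rose were Myc, Mycn, Mxd1 and Mxi1 each time. In the library labelled FGL at day 12, 1 of 7 rose (Mxd1) and 0 fell, against 3.91% and 1.19% of all genes. In that labelled FGL at day 21, 0 of 7 rose and 0 fell, against 1.15% and 0.984%. Of all genes called at this last comparison 53.8% had risen, and 41.8% after upper-quartile scaling. The comparisons of one day share their untreated library. In all, 17 member differences rose and 2 fell, and 16 and 2 without the library labelled FGL at day 12.

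The 8 MEF libraries were also fitted together with limma, with condition and day as terms, on log2(FPKM + 1) for 12807 genes with at least 1 FPKM in any library. This fit, chosen after the data were seen, takes the libraries of day 12 and day 21 as replicates of a condition. Its error thus holds any difference in response between the days. Each gene has 3 residual degrees of freedom, and limma draws its error towards a trend over all genes. The p-values therefore do not rest on the spread of the gene alone. Differences of low genes such as Mycn are understated on this scale.

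By limma Myc was higher than uFIB by 1.46 ± 0.11 (SE) on the log2 scale in SL (Benjamini-Hochberg adjusted p = 0.00105) and by 1.94 ± 0.11 in SFGL (adjusted p = 0.000495). Mycn was higher by 1.69 ± 0.16 in SL (adjusted p = 0.00131) and by 1.80 ± 0.16 in SFGL (adjusted p = 0.00075) in this limma fit. Mxd1 rose by 3.39 ± 0.30 in SL (limma adjusted p = 0.00121) and by 3.44 ± 0.30 in SFGL (adjusted p = 0.000718). Mxi1 rose by 1.84 ± 0.13 in SL (limma adjusted p = 0.00104) and by 1.74 ± 0.13 in SFGL (adjusted p = 0.000594). All 4 genes were higher in 2 of 2 libraries of each condition.

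Mxd4 fell in SFGL by 0.99 ± 0.24 on the log2 scale (limma adjusted p = 0.0173), while in SL its difference of -0.67 ± 0.24 did not pass (adjusted p = 0.0655). Max, which had not reached 2-fold, was higher in SFGL by 0.44 ± 0.14 (limma adjusted p = 0.0376) and in SL by 0.27 ± 0.14 without passing (adjusted p = 0.148). Without uFIB at day 12, SFGL at day 12, uFIB at day 21 or SFGL at day 21, Max in SFGL was at 0.56, 0.52, 0.33 and 0.36 and did not pass. Without uFIB or SFGL of day 21, Mxd4 in SFGL was at -0.73 and -0.78 and did not pass. Mxd3 and Mnt passed in neither condition.

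By limma, 4 of 8 members thus rose in SL and 0 fell, against 25.0% and 26.6% of all genes, and 5 of 8 rose in SFGL and 1 fell, against 27.4% and 30.6%. In the libraries labelled FGL, 0 of 8 rose and 0 fell, against 0.0156% and 0.00% of all genes by limma, where 182 genes were higher and 299 lower at an unadjusted p under 0.05. Of the members in these libraries, Mxi1 alone was under that unadjusted limit, at 0.36 ± 0.13 on the log2 scale (limma adjusted p = 0.948). The libraries labelled FGL differed in Tal1, at 7.04 and 0.0705 FPKM at days 12 and 21. They differed also in Mxd1, at 1.40 and -0.073 on the log2 scale against uFIB. The fit takes them as replicates, so its FGL values average over unlike libraries. Their difference also enters the error used for SL and SFGL.

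Most markers of blood cells and fibroblasts moved with these values. The summed FPKM of 5 blood genes, Ptprc, Spi1, Runx1, Laptm5 and Coro1a, was 588 with SL and 684 with SFGL at day 12, against 20.9 in uFIB and 76.6 in the library labelled FGL. At day 21 it was 271 and 399.9, against 27.3 and 25.6. The 5 fibroblast genes, Col1a1, Col1a2, Pdgfra, Dcn and Thy1, summed to 1744 and 1450.4 FPKM with SL and SFGL at day 12, against 5208 in uFIB and 4507 in the library labelled FGL. At day 21 they summed to 1227 and 884, against 3469 and 3526. Ptprc was the lowest blood gene in every library, at 4.83 FPKM in SL at day 12 and at 0 in the library labelled FGL at day 21. Runx1 held most of the blood sum in uFIB, at 19.9 and 24.5 FPKM at days 12 and 21. It was at 39.6 and 31.0 with SL, and at 41.7 and 37.4 with SFGL. Against uFIB it passed 2-fold only in SFGL at day 12. Dcn fell in SL and SFGL at day 12. At day 21 it was at 458 FPKM with SL and 331 with SFGL against 513 in uFIB, short of 2-fold. The libraries in which Mxd1 was raised were those in which the sum of the blood genes was raised. In such bulk samples, fewer cells of a type and less RNA per cell cannot be told apart, and the part of cell makeup in the member values was not tested.

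Proliferation genes moved with them as well, and all 6 rose in SL and in SFGL on both days, where 14.6% to 16.9% of all genes rose. They summed to 344 FPKM with SL and 329 with SFGL at day 12, against 75.6 in uFIB and 108 in the library labelled FGL. At day 21 they summed to 273 and 289.7, against 79.7 and 73.6. Mki67 was at 53.8 FPKM with SL and at 45.8 with SFGL at day 12, from 6.55 in uFIB. Mxd1 and Mxi1 were thus high in the same MEF libraries as the proliferation genes, whereas in the stages they were highest in MAC, where those genes were lowest in 5 of 6 cases. The part of proliferation in the member values was not tested.

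The MYC-induced genes moved less than Myc itself. Of the 35, 25 were higher in SL at day 12 and 30 in SFGL, and 29 and 31 at day 21, with 2, 5, 2 and 9 passing 2-fold upward, where 16.3%, 16.9%, 14.6% and 16.5% of all genes did so. Only the last of these shares was above that of all genes. The median log2 differences were 0.28, 0.56, 0.48 and 0.80, where the medians of all genes were -0.03, -0.03, -0.05 and -0.05. Dkc1 rose in all 4 of these libraries, from 9.26 to 21.8 FPKM in SL and 25.7 in SFGL at day 12. Ldha, which makes lactate, went from 233 to 480 FPKM in SL and 708 in SFGL at day 21. Tert, the telomerase enzyme, fell at day 12 from 1.58 to 0.650 FPKM with SL and to 0.358 with SFGL, and Cdk4 was at 155 FPKM in uFIB and 93.6 in SL. In the libraries labelled FGL none of the 35 passed the limit. Of all genes 3.91% rose and 1.19% fell there at day 12, and 1.15% and 0.984% at day 21. The medians of the 35 were -0.08 at day 12 and -0.06 at day 21, where all genes had -0.05 and 0.01.

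**Figure D5:**
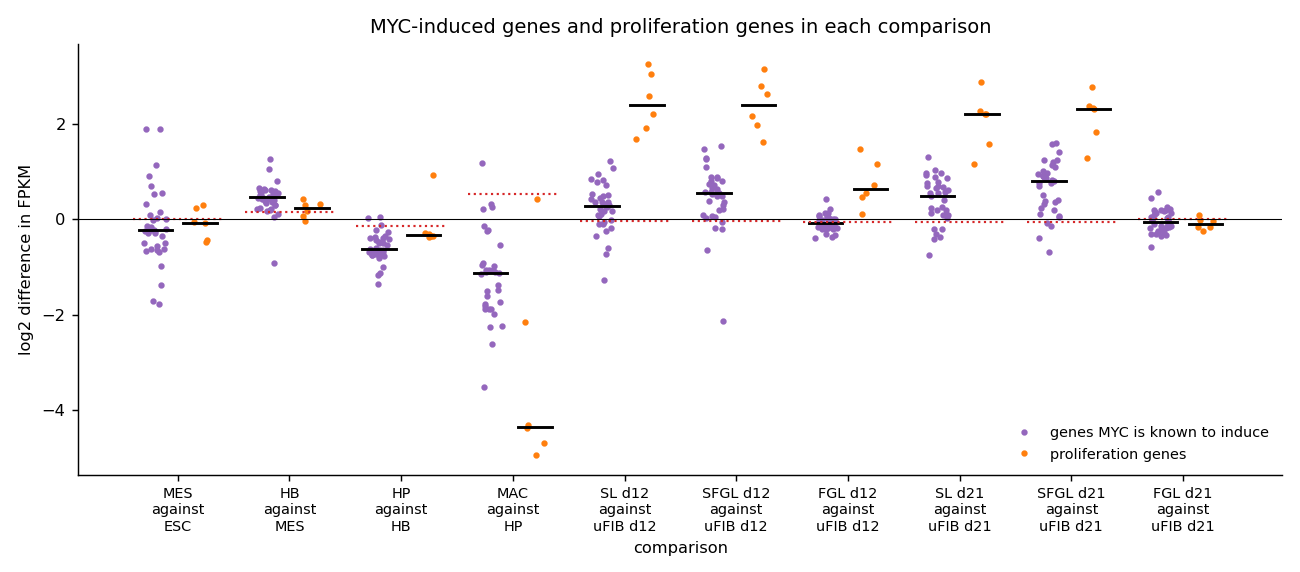
Log2 difference in FPKM of each MYC-induced gene (purple) and proliferation gene (orange) with at least 1 FPKM in either sample, in each comparison; black bars are the lists' medians and the red dotted line the median of all genes. Induced genes have a median of -1.12 from HP to MAC and of 0.28 to 0.80 in SL and SFGL.

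Of the extended network in MEFs, Mlxipl, the glucose-responsive partner of MLX, fell in SL and SFGL on both days. At day 12 it was at 1.77 FPKM with SL and 1.14 with SFGL, against 9.17 in uFIB and 6.91 in the library labelled FGL. At day 21 it was at 0.730 and 0.429, against 9.78 and 7.82. Mlx rose at day 12, from 11.2 to 25.0 in SL and 27.7 in SFGL, and at day 21 was at 13.2, 23.3 and 24.3, short of 2-fold. Mlxip and Mga passed no limit, and Mycl stayed below 1 FPKM in all 8 libraries. Of the MYC-repressed genes, Gas1 fell in SL and SFGL on both days, from 74.9 to 22.1 and 11.1 FPKM at day 12 and from 65.2 to 8.72 and 7.70 at day 21. Ndrg1 rose in SL at day 12, from 14.0 to 32.4 FPKM, and no other gene of the 7 passed the limit. Thus 1 of 7 rose and 1 fell in SL at day 12, where 16.3% and 18.2% of all genes did so. In SFGL at day 12 and in SL and SFGL at day 21, 0 of 7 rose and 1 fell. Of all genes 16.9%, 14.6% and 16.5% rose in these comparisons, and 21.5%, 15.7% and 20.2% fell. Among the cofactors Aurka went from 3.18 to 22.9 FPKM and Ruvbl2, a helicase of MYC complexes, from 18.4 to 38.9 in SL at day 12.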

How the data were processed

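RNA-seq of 18 samples was used, 10 of the stages and 8 of the MEFs, grouped by their labels. All values are FPKM as the authors deposited them. For the stages, ribosome-depleted RNA was sequenced on a SOLiD instrument, and the authors aligned unique colour-space reads with SHRiMP, removed duplicates with Picard and ran Cufflinks; the submitters' processing notes name Cufflinks for these, Bowtie and HOMER for ESC, and TopHat and Cufflinks for the MEFs, with build mm10, and versions are not given in the sources used here. The table of stages holds 1 value per transcription start site and stage, with replicates combined, and start sites were summed per gene. The MEF table has a value for each gene in each library. As each table had its own normalization, levels were compared only inside a table. One column of the stage table, which belongs to no sample here, was left out (1 column of values). Removal of duplicates limits high values, and unique alignment lowers genes with near-identical copies.

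Depth does not follow from FPKM in the stages. In the MEFs, the most frequent ratio among genes below 0.3 FPKM, shared by 15.1% to 19.2% of those genes, put the libraries at an estimated 0.586 (FGL, day 21) to 1.56 (SL, day 12) times the depth of uFIB at day 12.

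A difference was called at 2-fold or more on the log2 scale with 0.001 FPKM added, if either sample reached 1 FPKM. The stages were not tested. For the MEFs, limma was run over all 8 libraries with condition and day as terms on log2(FPKM + 1), with the mean-variance trend and Benjamini-Hochberg adjustment over all genes, a test added after seeing the data; nothing says whether the libraries came from separate cultures, so its p-values measure the spread between these libraries, which may be technical. Named were the 8 members, genes of the extended network and of the MYC-repressed list, and of the cofactors, MYC-induced genes and proliferation genes the 3 that rose most and the 3 that fell most in a comparison, with the 5 genes most like Myc and Mycn and the listed markers; Mxi1 start sites and the TTTGGCGC motif were chosen after their values were seen. The members and lists were chosen with earlier results of these data known. Alternatives were other pseudocounts (0.1 and 1), other minimum levels, upper-quartile scaling, a 4-fold limit, the highest start site of each gene, the averaged uFIB libraries as reference, the ratio without Mnt and, chosen after seeing the data, leaving out the library labelled FGL at day 12. Starts in the table of stages count from 0, since with 1 added 48.9% of 18538 genes matched the RefSeq start against 3.45% as listed, and 1 was added. Both the 2-fold calls and the limma fit were tested on simulated data with known changes. These were 3-fold for the calls and 4-fold for limma, with independent noise that was not taken from these data. The simulations check the code and do not give the rate of false calls in these data. R 4.3.3, limma 3.58.1, Python 3.11.15, NumPy 2.4.6, pandas 2.3.3 and matplotlib 3.10.9 were used.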

Additional observations from a re-analysis of the deposited data

Results flagged for a closer look

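Mxd1 differed from uFIB by 1.40 on the log2 scale in the library labelled FGL at day 12 and by -0.073 in that labelled FGL at day 21, so that the sign differed between the days. The difference between the days was not tested, since each day has 1 library per condition. Tal1 was at 7.04 FPKM in the first of these libraries and at 0.0705 in the second, and the 5 blood genes summed to 76.6 and 25.6 FPKM; the part of these in the Mxd1 values was not tested. In SL and SFGL, Mxd1 was higher than in uFIB on both days.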

How the results depend on the processing

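Over the 4 stage steps, 7 member differences rose and 6 fell, and over the 6 MEF comparisons 17 rose and 2 fell. With a pseudocount of 1 only 3 of the falls in the stages passed, and both rises of Mxd1 in the stages were lost. The falls lost were those of Max from ESC to MES, Mxd3 from MES to HB and Myc from HP to MAC. At a limit of 4-fold 2 rises and 1 fall were left in the stages, and 10 rises and 0 falls in the MEFs. Against the averaged uFIB libraries 1 fall was left in the MEFs. Under every other alternative run these counts were within 1.5 times, and the ratio of Myc plus Mycn to the 5 MXD and MNT genes kept its side of 1 in each sample, with Mnt left out and, in the stages, with the highest start site of each gene. Of 560 recomputed member differences, none changed sign after having passed the limit, 34 lost the limit and 4 gained it. By limma over both days, which pairs the MEF conditions by day, 9 member differences rose and 1 fell; 0 fell with no minimum FPKM and 2 with upper-quartile scaling, and with each library left out in turn 8 to 9 rose and 0 to 1 fell. Of 285 single values of that fit under these alternatives 8 lost their call, all of Max or Mxd4 in SFGL, 1 gained it (Mxd4 in SL with scaling) and none reversed. No paired analysis was possible in the stages because the table combines the replicates. Levels near 0, such as Mycn in uFIB and MAC, limit the precision of the folds that rest on them.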
